A study of Mus musculus with 31 samples.

Results

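The glucocorticoid-responsive genes Fkbp5, Tsc22d3, Sgk1 and Zbtb16, the metallothionein genes Mt1 and Mt2, the growth arrest genes Cdkn1a and Gadd45b, and the genes of the glucocorticoid receptor (Nr3c1) and of the enzyme that makes its active hormone inside the cell (Hsd11b1) were followed in the liver of refed mice. These 10 genes were chosen by name, with earlier results of these data known. Every probe of the array that carries such a name was taken. The array held 20 such probes, and 16 of them, with at least 1 for each gene, passed the filter on dim spots, out of 36059 probes for 23968 gene names. The 4 probes that did not pass were additional probes of Fkbp5, Tsc22d3, Sgk1 and Cdkn1a. Where a gene had several probes, the one with the highest mean signal over all arrays is called the leading probe.

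ChREBP is a glucose-activated transcription factor encoded by Mlxipl. The study asked how loss of its short isoform, ChREBPβ, affects insulin action and energy balance in mice. Its arrays of liver and adipose tissues set loss of ChREBPβ beside loss of both isoforms, and those of liver are used here. All mice of these arrays were C57BL6/J males, fasted for 24 hours and then refed for 18 hours with food and water containing 20% glucose. Each array was labelled as liver of such a mouse. ChREBPβ-deficient mice (8 arrays) lack exon 1b of Mlxipl in the whole body after CRISPR/Cas9 editing, and were set against WT littermates of that line (8 arrays). Total ChREBP-KO mice (7 arrays) are Mlxipl-null and lack ChREBPα and ChREBPβ, and were set against WT littermates of their own line (8 arrays). The lines are called the ChREBPβ line and the total line below. The ages of the mice and the hour of tissue collection were not given in the sources used here. A total ChREBP-KO array numbered 3 was not analysed here. Arrays 7 and 8 of the total-line WT littermates differed by a median absolute deviation of 0.0800 on the log2 scale, less than repeated spots of 1 array (0.103 to 0.193), and were averaged and counted as 1 sample, so that the group has n = 7 and the analysis 30 samples. Nothing in the labels says whether other arrays of a group share an animal, and p-values measure the spread between these samples.

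Glucocorticoids enter the liver cell, where the enzyme encoded by Hsd11b1 can regenerate active hormone from its inactive form, and bind the receptor encoded by Nr3c1, which then moves to the nucleus and acts on target genes. Fkbp5 encodes a co-chaperone that lowers the affinity of the receptor for its hormone, Tsc22d3 the leucine zipper protein GILZ, Sgk1 a serum- and glucocorticoid-regulated kinase, and Zbtb16 a zinc finger transcription factor. Metallothioneins are small cysteine-rich proteins that bind zinc and copper, and in liver their genes are known to respond to metals through the factor MTF1, to glucocorticoids and to inflammation. Cdkn1a encodes the cell cycle inhibitor p21 and Gadd45b a stress-induced signaling protein.

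The promoters of Mt1, Mt2 and Sgk1 are shown because Mt1 and Mt2 varied together between mice, and because the window of Sgk1 held the full palindrome to which the glucocorticoid receptor binds. Sequences were taken from RefSeq (build GRCm38.p6), 250 bases before to 50 after each listed start. Of the 10 genes, 8 had an entry, with 16 promoters, and Zbtb16 and Nr3c1 had none. The core of the metal response element was searched on both strands as TGCACNC or TGCGCNC. The capitals mark the cores in Mt2 (chr8:94172368-94172617, and chr8:94172622-94172628 after the start) and Mt1 (chr8:94178839-94179088, and chr8:94179091-94179115 after the start), on the plus strand, and the receptor palindrome in a stretch of Sgk1 (chr10:21993671-21993745, plus strand).
Mt2, before the start: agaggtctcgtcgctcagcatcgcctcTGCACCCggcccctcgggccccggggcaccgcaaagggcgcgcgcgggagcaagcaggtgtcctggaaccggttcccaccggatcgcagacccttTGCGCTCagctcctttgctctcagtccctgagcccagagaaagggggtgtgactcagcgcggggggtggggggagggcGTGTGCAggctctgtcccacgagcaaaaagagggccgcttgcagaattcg
Mt2, after the start: GTGCGCA
Mt1, before the start: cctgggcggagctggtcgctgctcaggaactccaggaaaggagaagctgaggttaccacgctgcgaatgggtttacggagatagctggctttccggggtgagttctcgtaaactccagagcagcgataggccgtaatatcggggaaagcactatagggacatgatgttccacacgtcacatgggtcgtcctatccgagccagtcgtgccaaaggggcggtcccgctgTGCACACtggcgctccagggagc
Mt1, after the start: TGCACTCcgcccgaaaagTGCGCTC
Sgk1, stretch of 75 bases: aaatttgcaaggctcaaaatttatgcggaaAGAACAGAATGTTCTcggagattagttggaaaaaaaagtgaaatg
The Mt2 window held 4 cores and the Mt1 window 3, while 25.7% of 32851 mouse promoters of the same length held at least 1, 1.97% at least 3 and 0.517% at least 4. Sgk1 (1 of its 6 listed starts) and Hsd11b1 held 1 core each. The palindrome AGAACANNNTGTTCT, which reads the same on both strands and shares no bases with the cores shown, was found in 3 of the 32851 promoters (0.00913%), and among the 16 promoters of these genes in this 1 of Sgk1. A match of letters is a description of the window and not a measured binding site. Positions and counts refer to the listed starts, and which start the liver uses was not measured.

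As a check of the labels, the Mlxipl probe A_55_P2119957 ranged from 13.89 to 14.30 (log2 signal) in total ChREBP-KO mice and from 15.14 to 15.48 in their WT littermates, and from 14.40 to 14.84 in ChREBPβ-deficient mice against 14.88 to 15.33 in theirs, with no overlap within either line. Of its 2 other probes, A_55_P2728555 overlapped within both lines (10.06 to 10.86 in total ChREBP-KO mice against 10.62 to 11.47) and A_55_P2045158 lay between 10.75 and 11.25 in all groups. Values are log2 of the median spot intensity after quantile normalization, and the number of arrays limits their precision. The 15 slides, of which 13 carried several groups, went through the scanner on 2 days. Summed signals of 6 hepatocyte genes ran from 21.15 to 21.20 (log2) in total ChREBP-KO mice, where 3 of 11 probes (of Cyp2e1 and Ttr) were higher, and from 21.01 to 21.07 in their WT littermates. They ran from 21.01 to 21.14 in the ChREBPβ line. The hepatocyte gene Alb read 18.96 on every array, because quantile normalization sets the brightest values by rank. Sums of such bright genes are thus partly fixed and are no measure of hepatocyte content. Of 11 probes of stellate cell genes, 6 (of Dcn and Reln) were also higher in total ChREBP-KO mice, with sums of 14.35 to 15.14 against 13.99 to 14.48. Summed signals of 4 adipocyte genes reached 13.62 in total ChREBP-KO sample 6 and 12.28 in total-line WT sample 5, against group medians of 8.87 and 8.89. In the ChREBPβ line they ran from 9.04 to 11.25 in WT mice and from 9.71 to 13.24 in deficient mice. Those of 4 cholangiocyte genes reached 11.58 in total ChREBP-KO sample 5, against a group median of 9.52. The part of cell composition in the differences below was not tested. Among the total-line WT littermates, sample 2 and the averaged sample 7 also carried RNA of exocrine pancreas, with the elastase gene Cela3b at 10.41 and 8.65 where the highest value in the other 3 groups was 5.50. For several of the 10 genes, differences are also given without these samples. Those of the other gene lists are given only with them.

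No probe of these genes passed the test in either deficiency, and 6 passed between the WT mice of the 2 lines, among which the metallothionein genes had only the upstream probe of Mt1. In total ChREBP-KO mice, 0 of the 16 probes passed an adjusted p of 0.05 against WT littermates (limma, Benjamini-Hochberg over all probes), whereas 27.3% of all probes did. At an unadjusted p under 0.05 there were 2, the upstream probe of Mt1 and the leading probe of Cdkn1a, both lower, against 37.2% of all probes. In ChREBPβ-deficient mice, 0 of 16 passed, with 1 (Hsd11b1) at an unadjusted p under 0.05, against 0.00277% and 4.9% of all probes. Between the WT littermates of the 2 lines, 6 of 16 probes passed, of 6 genes, all higher in the total line, against 15% of all probes (6.96% higher, 8.02% lower). The difference between the deficiencies passed for 0 of 16, with 2 (Hsd11b1 and the leading probe of Fkbp5) at an unadjusted p under 0.05, against 14.4% (6.71% positive, 7.72% negative) and 27.1% of all probes.

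**Figure D1:**
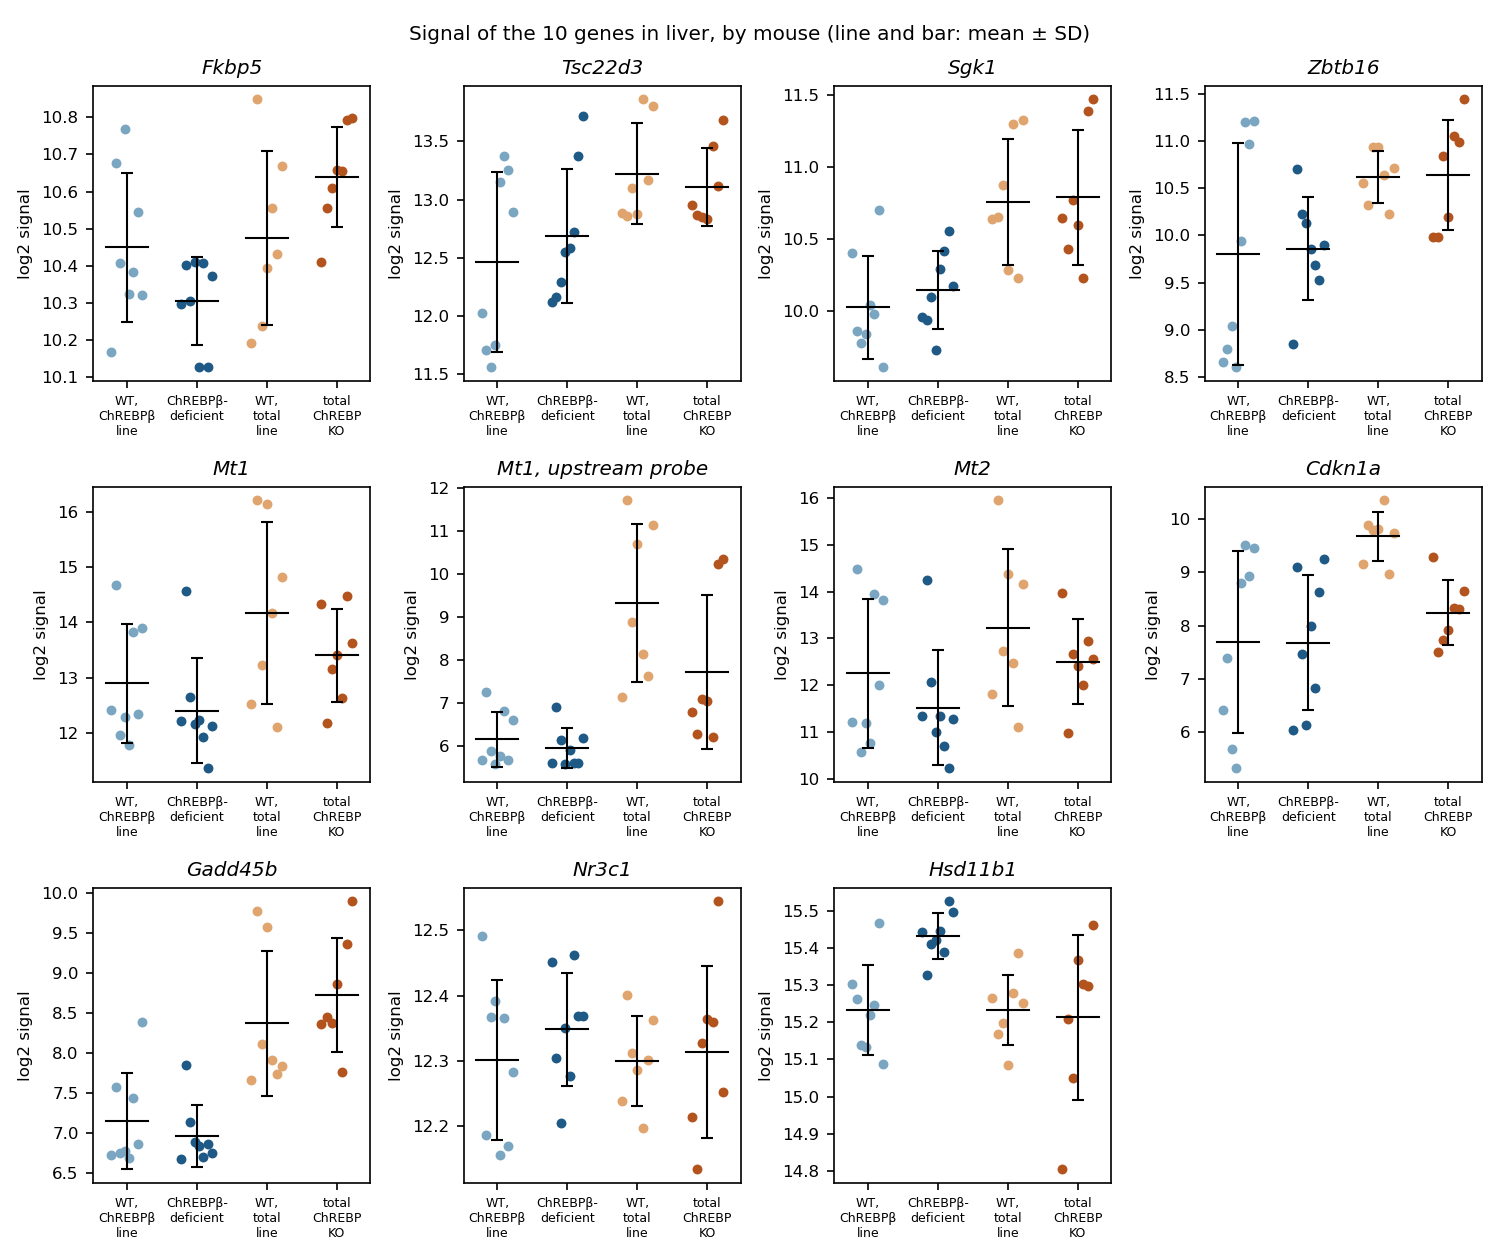
Signal of each gene (log2, vertical axes with different ranges) in every sample of the 4 groups, leading probe, with the upstream probe of Mt1 in addition. Points are samples (n = 8, 8, 7 and 7 from left to right), lines and bars the mean ± SD. Nr3c1 overlaps in all groups, Mt1 and Mt2 spread over several log2 units within groups, and Gadd45b and the upstream Mt1 probe lie higher in most mice of the total line.

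The receptor gene Nr3c1 was read by 2 probes on chromosome 18, at 39571641-39571700 and 39588272-39588331 (mm9, minus strand, as all coordinates of probes below are mm9). The leading probe ran from 12.16 to 12.49 with a median of 12.32 in WT mice of the ChREBPβ line, from 12.20 to 12.46 with a median of 12.36 in ChREBPβ-deficient mice, from 12.20 to 12.40 with a median of 12.30 in WT mice of the total line, and from 12.13 to 12.54 with a median of 12.33 in total ChREBP-KO mice (log2 signal). All 4 groups overlapped over most of their range. The difference was 0.01 ± 0.06 (SE; 95% confidence interval -0.11 to 0.14, adjusted p = 0.898) in total ChREBP-KO mice and 0.05 ± 0.06 (interval -0.07 to 0.16) in ChREBPβ-deficient mice, and -0.00 (interval -0.12 to 0.12) between the WT mice of both lines.

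Hsd11b1 (chr1:195048169-195048228, minus strand) was read by 1 probe. It ran from 15.09 to 15.47 with a median of 15.23 in WT littermates and from 15.33 to 15.52 with a median of 15.43 in ChREBPβ-deficient mice. All 8 ChREBPβ-deficient mice lay above 7 of the 8 littermates, and 2 lay above the highest. The difference was 0.20 ± 0.07 (SE), with an unadjusted p of 0.00662 and an adjusted p of 0.976 in limma, and did not pass the correction. In the total line, WT mice ran from 15.09 to 15.39 with a median of 15.25 and KO mice from 14.80 to 15.46 with a median of 15.30, a difference of -0.02 ± 0.07. The difference between the 2 deficiencies was -0.22 ± 0.10 (adjusted p = 0.149) and did not pass either.

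Fkbp5 was read by 2 probes on the minus strand of chromosome 17. The leading probe (28536060-28536119) ran from 10.17 to 10.77 with a median of 10.40 in WT mice of the ChREBPβ line, from 10.13 to 10.41 with a median of 10.34 in ChREBPβ-deficient mice, from 10.19 to 10.85 with a median of 10.43 in WT mice of the total line and from 10.41 to 10.80 with a median of 10.66 in total ChREBP-KO mice. ChREBPβ-deficient mice kept to the lower part of the range, and total ChREBP-KO mice to the upper part, with all groups overlapping. The difference was 0.16 ± 0.09 (SE, adjusted p = 0.201) in total ChREBP-KO mice and -0.14 ± 0.09 (unadjusted p = 0.110) in ChREBPβ-deficient mice. The difference between these was 0.31 ± 0.13 (adjusted p = 0.107).

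Leaving out total-line WT sample 2, which has the highest Fkbp5 value of its group and the pancreatic RNA, brought this difference between deficiencies to 0.37 (adjusted p = 0.0335). Without both samples with pancreatic RNA it was 0.42 (adjusted p = 0.0155), and the difference in total ChREBP-KO mice was 0.28 (adjusted p = 0.0228). Sample 2 (10.85) and the averaged sample 7 (10.67) hold the highest values of their group at this probe, so leaving them out could only widen both differences. This exclusion was chosen after seeing the data, and no conclusion is drawn from these p-values. The other probe (28574995-28575054) ran from 6.65 to 7.43 (median 7.08) and from 6.49 to 7.10 (median 6.80) in WT and deficient mice of the ChREBPβ line, and from 6.96 to 8.34 (median 7.43) and from 7.13 to 7.70 (median 7.40) in those of the total line. It did not show the pattern of the leading probe, being lower by 0.20 ± 0.17 in total ChREBP-KO mice (adjusted p = 0.450) and with a difference between deficiencies of 0.03 ± 0.24.

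Tsc22d3 was read by 2 probes on the minus strand of chromosome X, at 137074094-137074153 (leading) and 137074801-137074860. The leading probe ran from 11.56 to 13.37 with a median of 12.46 in WT mice of the ChREBPβ line and from 12.12 to 13.72 with a median of 12.57 in ChREBPβ-deficient mice. In the total line it ran from 12.86 to 13.86 with a median of 13.10 in WT mice and from 12.84 to 13.68 with a median of 12.95 in total ChREBP-KO mice. WT mice of the ChREBPβ line lay in 2 separate ranges, with samples 1 to 4 at 11.56 to 12.03 and samples 5 to 8 at 12.90 to 13.37. The differences of -0.11 ± 0.29 in total ChREBP-KO mice and 0.22 ± 0.27 in ChREBPβ-deficient mice were smaller than the spread between mice.

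Sgk1 (chr10:21719390-21719449, plus strand) ran from 9.61 to 10.70 with a median of 9.92 in WT mice of the ChREBPβ line, from 9.73 to 10.56 with a median of 10.14 in ChREBPβ-deficient mice, from 10.23 to 11.32 with a median of 10.65 in WT mice of the total line and from 10.23 to 11.47 with a median of 10.65 in total ChREBP-KO mice. Deficient mice and littermates of each line covered nearly the same range, and the total line lay higher. The difference was 0.03 ± 0.20 (SE) in total ChREBP-KO mice and 0.12 ± 0.18 in ChREBPβ-deficient mice.

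Zbtb16 was read by 2 probes on the minus strand of chromosome 9. The leading probe (48462419-48462478) ran from 8.60 to 11.21 with a median of 9.49 in WT mice of the ChREBPβ line and from 8.84 to 10.70 with a median of 9.87 in ChREBPβ-deficient mice. It ran from 10.23 to 10.94 with a median of 10.64 in WT mice of the total line and from 9.98 to 11.44 with a median of 10.85 in total ChREBP-KO mice. As with Tsc22d3, WT mice of the ChREBPβ line were apart by number, samples 1 to 4 at 8.60 to 9.04 and samples 5 to 8 at 9.94 to 11.21. The difference was 0.02 ± 0.37 in total ChREBP-KO mice and 0.06 ± 0.35 in ChREBPβ-deficient mice. The dimmer probe is split over 52017 bases of genome (48473399-48525415), as a probe across a splice junction is, and gave -0.03 ± 0.24 and 0.09 ± 0.22.

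Mt1 was read by 2 probes on the plus strand of chromosome 8, the leading one at 96704165-96704224, and the other, 261 bases upstream of it at 96703844-96703903, which the array annotation assigns to a predicted transcript variant. The leading probe ran from 11.78 to 14.69 with a median of 12.37 in WT mice of the ChREBPβ line, from 11.35 to 14.57 with a median of 12.19 in ChREBPβ-deficient mice, from 12.11 to 16.22 with a median of 14.18 in WT mice of the total line and from 12.18 to 14.48 with a median of 13.41 in total ChREBP-KO mice. Apart from the total ChREBP-KO mice, each group held mice far above its own median, which were samples 2, 6 and 8 of the WT mice and sample 2 of the ChREBPβ-deficient mice in the ChREBPβ line, and samples 2 and 4 of the WT mice in the total line. The difference was -0.77 ± 0.58 (SE, adjusted p = 0.359) in total ChREBP-KO mice and -0.50 ± 0.55 (unadjusted p = 0.369) in ChREBPβ-deficient mice. The 95% confidence intervals were -1.97 to 0.42 and -1.61 to 0.62. Without the WT samples with pancreatic RNA the difference in total ChREBP-KO mice was -0.24.

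Mt2 (chr8:96697371-96697430, plus strand) ran from 10.58 to 14.49 with a median of 11.61 in WT mice of the ChREBPβ line and from 10.23 to 14.24 with a median of 11.31 in ChREBPβ-deficient mice. In the total line it ran from 11.12 to 15.94 with a median of 12.72 in WT mice and from 10.98 to 13.97 with a median of 12.56 in total ChREBP-KO mice. The mice highest for Mt1 were also high for Mt2. The difference was -0.73 ± 0.69 (adjusted p = 0.486) in total ChREBP-KO mice, where it was 0.01 without the WT samples with pancreatic RNA, and -0.73 ± 0.65 (unadjusted p = 0.272) in ChREBPβ-deficient mice.

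The upstream Mt1 probe ran from 5.56 to 7.25 with a median of 5.81 in WT mice of the ChREBPβ line and from 5.58 to 6.91 with a median of 5.75 in ChREBPβ-deficient mice. It ran from 7.12 to 11.71 with a median of 8.89 in WT mice of the total line and from 6.19 to 10.35 with a median of 7.03 in total ChREBP-KO mice. In WT sample 2 of the ChREBPβ line, where the leading probe read 14.69, the upstream probe read 7.25, whereas in total ChREBP-KO sample 8, with 13.63 at the leading probe, it read 10.35. Of the total ChREBP-KO mice, samples 7 and 8 lay at 10.22 and 10.35 and the other 5 at or below 7.08. The probe was lower by a difference of -1.62 ± 0.65 (SE) in total ChREBP-KO mice, with an adjusted p of 0.0644 in limma, and did not pass. Without both WT samples with pancreatic RNA, whose values of 11.71 and 11.14 were the highest of their group, it was -0.78 (adjusted p = 0.401), and with 1 sample left out at a time -2.06 to -1.23, the smallest in size without WT sample 2. On scan day 1 it was -2.81 (adjusted p = 0.0185) and on day 2 -0.04. It passed without total ChREBP-KO sample 7 (-2.04, adjusted p = 0.0159) or 8 (-2.06, adjusted p = 0.0146), or without WT sample 1 (-1.99, adjusted p = 0.0227), 5 (-1.82, adjusted p = 0.0459) or 6 (-1.91, adjusted p = 0.0328). The difference was -0.21 ± 0.61 in ChREBPβ-deficient mice.

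Cdkn1a was read by 2 probes on the plus strand of chromosome 17. The leading probe (29237377-29237436) ran from 5.32 to 9.52 with a median of 8.10 in WT mice of the ChREBPβ line and from 6.04 to 9.26 with a median of 7.73 in ChREBPβ-deficient mice. It ran from 8.97 to 10.35 with a median of 9.79 in WT mice of the total line and from 7.49 to 9.29 with a median of 8.31 in total ChREBP-KO mice, so that 2 WT mice lay within the range of the KO mice. The difference was -1.43 ± 0.59 (SE, 2.70-fold lower, adjusted p = 0.0702) in total ChREBP-KO mice and -0.01 ± 0.55 in ChREBPβ-deficient mice, where each genotype spread over more than 3 log2 units. The spread in the ChREBPβ line enters this test through the shared estimate. With the total line fitted alone the adjusted p was 0.000942, without WT sample 4 of the ChREBPβ line 0.0489, and with slide as a random or fixed block 0.0481 and 0.0286. Without the WT samples with pancreatic RNA the difference was -1.37 (adjusted p = 0.137). The difference between the deficiencies was -1.42 ± 0.81 (adjusted p = 0.265). The other probe (29235299-29235358) was well above background on 17 of 31 arrays (all 8 of the total-line WT arrays, 4 of 7 total ChREBP-KO, 2 of 8 and 3 of 8 in WT and deficient mice of the ChREBPβ line), and differed by -0.29 ± 0.17 and -0.05 ± 0.16.

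Gadd45b (chr10:80394367-80394426, plus strand) ran from 6.68 to 8.38 with a median of 6.82 in WT mice of the ChREBPβ line, from 6.67 to 7.85 with a median of 6.84 in ChREBPβ-deficient mice, from 7.66 to 9.77 with a median of 7.91 in WT mice of the total line and from 7.76 to 9.89 with a median of 8.45 in total ChREBP-KO mice. The mice of the total line lay above nearly all mice of the ChREBPβ line in both genotypes. The difference was 0.35 ± 0.34 (SE) in total ChREBP-KO mice and -0.19 ± 0.31 in ChREBPβ-deficient mice.

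**Figure D2:**
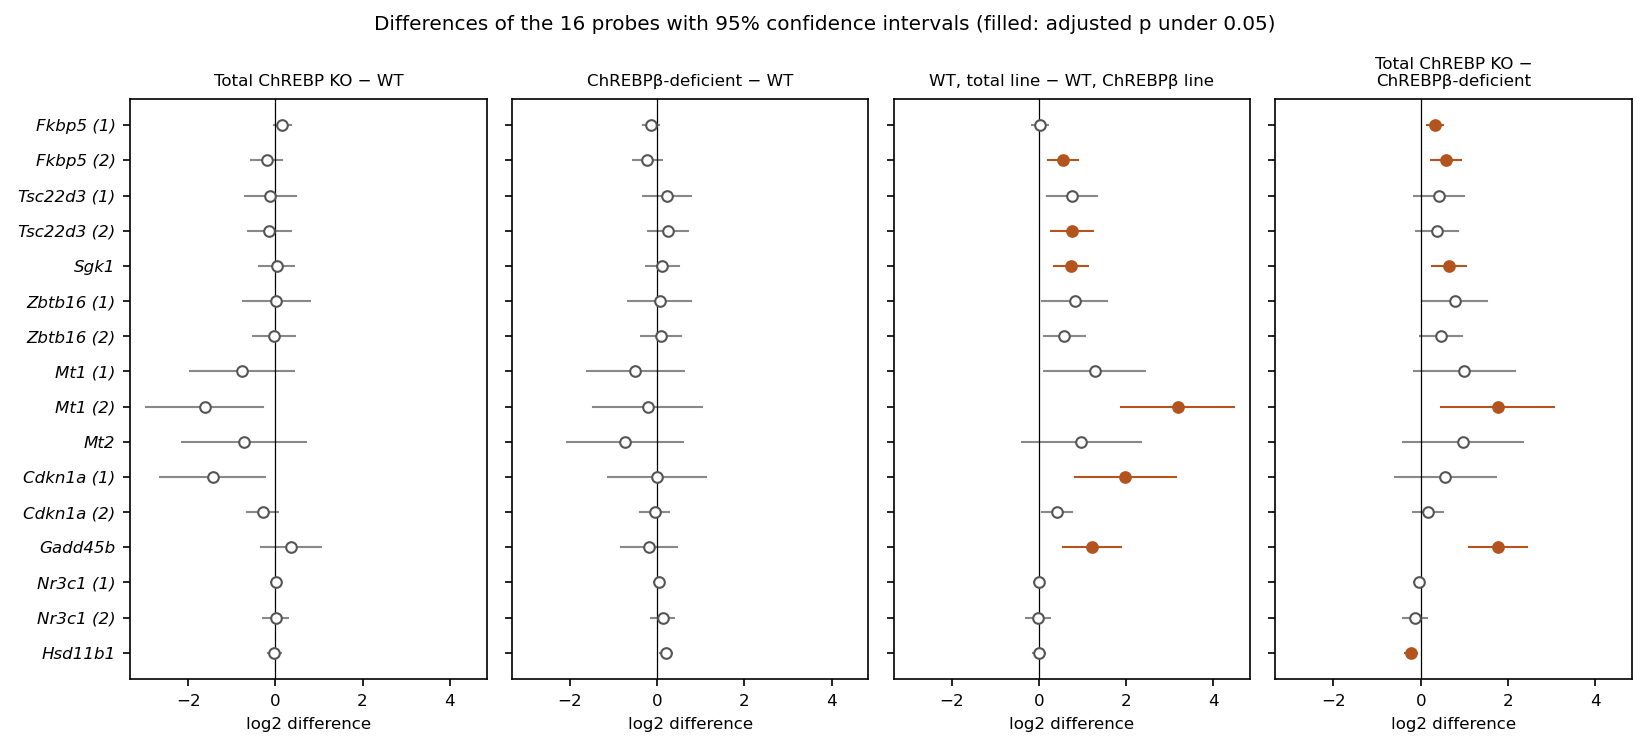
Differences in log2 signal (horizontal axes) of the 16 probes in 4 comparisons, with 95% confidence intervals as bars. Where a gene had 2 probes, (1) is the leading probe and (2) the other, and filled points passed an adjusted p of 0.05. No probe passed in the panels of either deficiency, 6 passed between WT littermates and 6 between the deficient mice of the 2 lines.

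Comparing the WT littermates of the 2 lines asked how far the reference mice themselves differed. The line and whatever else differed between these 2 sets of mice cannot be told apart. WT mice of the ChREBPβ line lay in 2 separate ranges of the clock gene Dbp, and those of the total line only below the upper range (values given below). Higher in the total line were the upstream Mt1 probe (3.18 ± 0.63 SE, 9.07-fold, adjusted p = 0.000961), Sgk1 (0.73 ± 0.19, 1.66-fold, adjusted p = 0.00896), Gadd45b (1.22 ± 0.33, 2.33-fold, adjusted p = 0.0106), the leading probe of Cdkn1a (1.99 ± 0.57, 3.96-fold, adjusted p = 0.0173), the dimmer probe of Fkbp5 (0.56 ± 0.17, 1.47-fold, adjusted p = 0.0230) and the dimmer probe of Tsc22d3 (0.76 ± 0.23, 1.69-fold, adjusted p = 0.0256). The ranges of the 2 groups overlapped for every one of the 16 probes, but the share of all probes with such overlap was not counted. The median difference of the 16 probes was 0.74, against 0.01 over all probes, and 14 of them were higher, 11 at an unadjusted p under 0.05 (29.2% of all probes).

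The leading probes of Tsc22d3 (0.76 ± 0.28, adjusted p = 0.0612), Zbtb16 (0.82 ± 0.36, adjusted p = 0.127), Mt1 (1.28 ± 0.57, adjusted p = 0.128) and Mt2 (0.98 ± 0.67, adjusted p = 0.353) did not pass, nor did the leading probe of Fkbp5 (0.03 ± 0.09) and Hsd11b1 (0.00 ± 0.07). The 2 Fkbp5 probes thus gave different answers. The call of the dimmer Fkbp5 probe was lost without total-line WT sample 2 (0.49, adjusted p = 0.0550), 5 (0.47, adjusted p = 0.0603) or 7 (0.44, adjusted p = 0.0672), and that of the dimmer Tsc22d3 probe without WT sample 2, 3 or 4 of the ChREBPβ line (0.69, 0.63 and 0.68) or sample 5 or 7 of the total line (0.70 and 0.66; adjusted p = 0.0513 to 0.0636). The leading Tsc22d3 probe passed without WT sample 5 (0.86), 6 (0.89) or 7 (0.87) or ChREBPβ-deficient sample 8 (0.76) of the ChREBPβ line, that of Zbtb16 without WT sample 6 or 8 of that line (1.02 in both), and that of Mt1 without WT sample 6 of the total line (1.62, adjusted p = 0.0476). The other probe of Zbtb16 passed without WT sample 6, 7 or 8 of the ChREBPβ line (0.73, 0.69 and 0.71), and that of Cdkn1a without WT sample 5 (0.53).

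Within scan days, the difference between WT littermates was 3.49 on day 1 and 2.78 on day 2 for the upstream Mt1 probe. It was 0.73 and 0.77 for Sgk1, 1.84 and 0.47 for Gadd45b, and 2.87 and 1.11 for Cdkn1a. For the dimmer probes it was 0.15 and 1.07 for Fkbp5 and 0.92 and 0.66 for Tsc22d3. Zbtb16 differed by 1.59 on day 1 (adjusted p = 0.00589) and by 0.02 on day 2. With slide as a fixed block only the leading Cdkn1a probe passed (2.42, adjusted p = 0.0411), with the upstream Mt1 probe at 3.30 (adjusted p = 0.0596) and Sgk1 at 0.71 (adjusted p = 0.0569). With slide as a random block all 6 passed.

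The deficient mice of the 2 lines can be compared in the same way. Relative to ChREBPβ-deficient mice, total ChREBP-KO mice had higher Gadd45b (1.76 ± 0.33 SE, 3.39-fold, adjusted p = 9.72e-05), higher signals at both Fkbp5 probes (0.33 ± 0.09, adjusted p = 0.00465, and 0.59 ± 0.17, adjusted p = 0.00742), higher Sgk1 (0.64 ± 0.19, adjusted p = 0.00933) and a higher signal at the upstream Mt1 probe (1.77 ± 0.63, adjusted p = 0.0313). Hsd11b1 was lower (-0.22 ± 0.07, adjusted p = 0.0171), as described above for its level in ChREBPβ-deficient mice. Thus 6 of 16 probes passed, 5 higher and 1 lower, against 32.3% of all probes (15.9% higher, 16.4% lower), and 7 had an unadjusted p under 0.05, against 41.3%. The 2 groups did not overlap for the dimmer Fkbp5 probe, which reached 7.10 in ChREBPβ-deficient mice and started at 7.13 in total ChREBP-KO mice. How many of all probes lack overlap here was not counted. Cdkn1a, which differed between the WT littermates, did not pass here (0.56 ± 0.57, adjusted p = 0.482).

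Markers of blood cells moved with the line. The summed signal of 4 red blood cell genes ran from 15.99 to 17.06 (log2) in WT and from 16.36 to 17.05 in deficient mice of the ChREBPβ line, and from 17.32 to 17.80 in WT and from 16.94 to 18.05 in KO mice of the total line, and 3 of their 5 probes (of Hba-a1 and Hbb-bt) were higher in the total-line WT mice. Of 4 neutrophil genes, S100a8, S100a9 and Retnlg were higher there, with summed signals of 10.24 to 11.95 against 9.36 to 11.42. The 7 macrophage and 5 lymphocyte genes measured gave no call between the WT mice. Of 11 exocrine pancreas genes, 5 passed the filter, with summed signals of 11.56 to 15.06 in total-line WT mice against 11.51 to 12.12 in those of the ChREBPβ line, and 6 (Prss2, Cpa1, Cpb1, Pnlip, Try4 and Try5) did not. The part of these cells in the differences above was not tested. In whole tissue, fewer cells of a type and less RNA per cell cannot be told apart. Without the 2 WT samples with pancreatic RNA, 4 of the 6 probes still passed, the upstream Mt1 probe at 2.34 (adjusted p = 0.0118), Gadd45b at 1.05 (adjusted p = 0.0356), Sgk1 at 0.64 (adjusted p = 0.0399) and Cdkn1a at 1.93 (adjusted p = 0.0491), the dimmer probes of Fkbp5 (0.32, adjusted p = 0.185) and Tsc22d3 (0.73, adjusted p = 0.0578) being lost. The leading Mt1 probe was at 0.74 and Mt2 at 0.25 without them.

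The acute phase gene Saa1, a marker of hepatic inflammation, differed between the mice with high metallothionein signals. It read 16.75 and 17.72 in total-line WT samples 2 and 4, and 17.20 and 17.37 in WT samples 6 and 8 of the ChREBPβ line. In WT sample 2 and ChREBPβ-deficient sample 2 of that line, which had the highest Mt1 signal of their groups, it read 14.64 and 14.71, against group medians of 14.73 and 13.34, and 14.71 was the highest Saa1 value among ChREBPβ-deficient mice. The part of inflammation in the metallothionein values was not tested.

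Pairs of genes were compared between mice after centring on the group means. In the ChREBPβ line Mt1 fell into 2 ranges, 12 mice up to 12.65 and 4 from 13.83, so pairs were tested in the total line (n = 14, 55 pairs of the 10 genes with each other and with the clock gene Dbp, permutation within groups, two-sided). There, 1 pair passed the adjustment on both Pearson r and Spearman rho, Mt1 with Mt2 (r = 0.93, p = 2e-05, adjusted p = 0.0011; rho = 0.93, p = 5e-05, adjusted p = 0.00275). Without the 2 mice farthest in Mt1 r was 0.89, and it was 0.94 in the 8 samples of scan day 1 and 0.91 in the 6 of day 2. In the 12 mice of the ChREBPβ line with lower Mt1, a set chosen by a measured value and so given as a description, r was 0.88.

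Gadd45b followed Mt1 less closely in the total line (r = 0.73, permutation p = 0.00642, adjusted p = 0.177; rho = 0.67, permutation p = 0.0200, adjusted p = 0.293), with 0.88 on scan day 1 and 0.46 on day 2, and 0.64 without the 2 farthest mice. In the 12 mice of the ChREBPβ line with lower Mt1, it was 0.42. Over all 30 samples 7 pairs passed on both measures, Mt1, Mt2 and Gadd45b with each other, Cdkn1a with Tsc22d3 and with Zbtb16, and Dbp with Cdkn1a and with Tsc22d3. Their pooled r is not given, since the ChREBPβ line falls into separate ranges of Mt1 and of Dbp. In the total line alone, 9 of the 55 pairs had a permutation p under 0.05 on r. The genes whose group-centred signal was most like that of the leading probes over 30 samples, given as a description, were Hrg (r = 0.75), Gchfr and Ivd (0.72 each) for Fkbp5, and Pip5k1a (0.96), AK132033 (0.84) and Aig1 (0.83) for Mt1. For Cdkn1a they were Loxl4 (0.93), the transcript listed as ENSMUST00000089101 (0.92) and Krtap20-2 (0.91). These r also pool the separate ranges of the ChREBPβ line and were not computed within them, so they cannot tell likeness from a shared split.

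**Figure D3:**
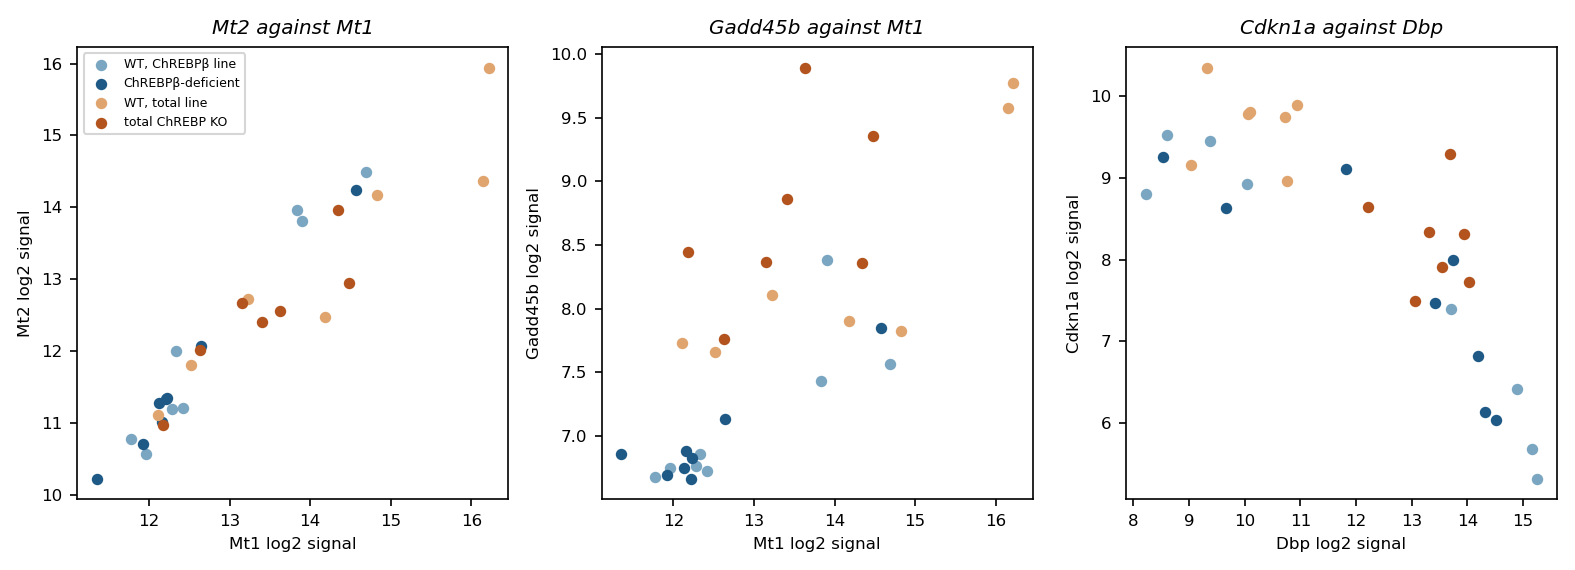
Log2 signals of Mt2 and Gadd45b against Mt1, and of Cdkn1a against Dbp, leading probes, each point 1 of the 30 samples, colored by group. Mt1 and Mt2 rise together in all groups, Gadd45b reaches 8.38 in the ChREBPβ line and 9.89 in the total line, and the ChREBPβ line falls into 2 ranges of Dbp, up to 10.05 and from 11.83.

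The clock output gene Dbp, whose level follows the hour of the day, also split the ChREBPβ line. It lay between 8.22 and 10.05 in WT samples 5 to 8 and ChREBPβ-deficient samples 7 and 8, and between 11.83 and 15.26 in the other 10 mice. Tsc22d3 read 12.90 to 13.72 in those 6 mice and 11.56 to 12.72 in the other 10, without overlap. How many of all probes lack overlap between these sets was not counted. Of the 6, WT sample 5 was scanned on day 1 and the rest on day 2, while the 10 were spread over both days. Cdkn1a read 8.63 to 9.52 in the 6 and 5.32 to 9.11 in the 10. The mice were sorted here by a measured gene, so no test was made. Within these sets and centred by genotype, r with Dbp was -0.29 in the 6 and -0.93 in the 10 for Cdkn1a. It was -0.41 and 0.31 for Tsc22d3. In the 10, r was also -0.96 for Gadd45b, -0.93 for Mt1 and -0.92 for Mt2, against 0.20, -0.05 and 0.03 in the 6. Zbtb16 gave -0.67 in the 10, and Fkbp5, Sgk1, Nr3c1 and Hsd11b1 between -0.16 and 0.60. ChREBPβ-deficient sample 2, far above its group for Mt1, Mt2 and Gadd45b, had the lowest Dbp of the 10. It (Mt1 14.57, Dbp 11.83) and WT sample 2 (14.69 and 13.70) were the only mice of the 10 in the upper Mt1 range. Each had the lowest Dbp of its genotype in this set. These r span both Mt1 ranges and were not computed without these mice, so they may rest on them. In the total line, Dbp lay between 9.05 and 10.95 in WT mice and between 12.23 and 14.04 in total ChREBP-KO mice, a difference of 3.27 ± 1.04 (SE, adjusted p = 0.0179). Within the groups of that line, Dbp gave r = -0.11 (rho = -0.18) with Cdkn1a and r = -0.31 (rho = -0.27) with Tsc22d3, with permutation p of 0.715 and 0.318 on r (0.552 and 0.385 on rho; adjusted p = 0.565 to 0.819). All WT mice of the total line thus lay below the 10 for Dbp. At the leading probes they read 8.97 to 10.35 for Cdkn1a and 12.86 to 13.86 for Tsc22d3, beside 8.63 to 9.52 and 12.90 to 13.72 in the 6. The part of this split in the calls between WT littermates was not tested. The part of the hour of collection in these values was not tested either.

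Other targets of the glucocorticoid receptor were taken from a list of 27 genes (39 probes). In total ChREBP-KO mice, 5 probes were higher and 8 lower, with a median difference of 0.03, against 13.6% and 13.7% of all probes. The clock gene Per1 (1.62 ± 0.29 SE), the Krüppel-like factor genes Klf9 (0.77 ± 0.12) and Klf15 (0.70 ± 0.12) and the tryptophan-degrading enzyme gene Tdo2 (0.96 ± 0.19) were higher. The glucose-6-phosphatase gene G6pc (-4.73 ± 0.52), the lipid transporter gene Mfsd2a (-3.36 ± 0.59), the phosphatidate phosphatase gene Lpin1 (-3.18 ± 0.21), the MAP kinase phosphatase gene Dusp1 (-1.55 ± 0.36) and Cebpb (-0.44 ± 0.12) were lower. Tat (0.60 ± 0.28, adjusted p = 0.109) and Pck1 (1.14 ± 0.44, adjusted p = 0.0530), hepatic enzymes of amino acid breakdown and gluconeogenesis, did not pass.

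In ChREBPβ-deficient mice 0 of the 39 target probes passed (median 0.10). Between the WT littermates, 12 were higher and 2 lower in the total line (median 0.17), against 6.96% and 8.02% of all probes, the higher ones being of Igfbp1, Dusp1 (2.02 ± 0.35), Cebpb (0.95 ± 0.12), Sult1e1 (0.92 ± 0.29), Errfi1 (0.86 ± 0.20), Zfp36 (0.86 ± 0.20), Cebpd (0.81 ± 0.16) and Lpin1 (0.60 ± 0.20), and the lower ones of Ppargc1a (-0.53 ± 0.14). Dusp1 and Cebpb were thus higher in the total-line WT mice than in those of the ChREBPβ line and lower in total ChREBP-KO mice than in their littermates. These comparisons share the total-line WT mice. The difference between the deficiencies was called for 14 of the 39 probes, 6 positive and 8 negative, against 14.4% of all probes, among them Per1 (1.34 ± 0.39), Dusp1 (-1.82 ± 0.50) and Lpin1 (-3.36 ± 0.28).

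**Figure D4:**
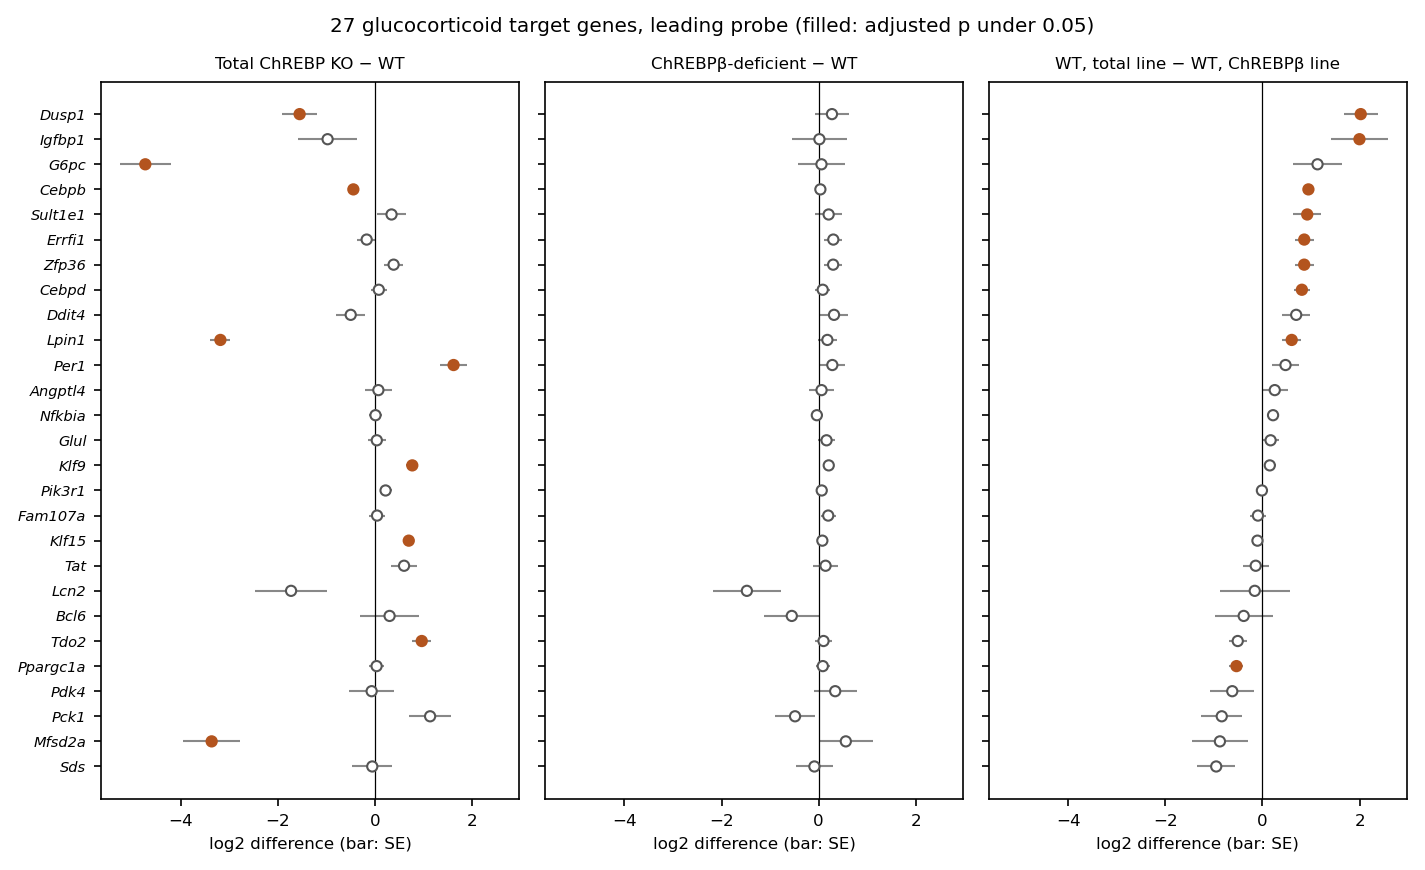
Differences in log2 signal (horizontal axes, bars SE) of the leading probes of 27 glucocorticoid target genes in total ChREBP-KO mice, in ChREBPβ-deficient mice and between the WT littermates of the 2 lines. Filled points passed an adjusted p of 0.05. Per1, Klf9, Klf15 and Tdo2 lie above 0 in the left panel, and no point is filled in the middle panel.

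Of 10 measured genes that handle glucocorticoids (18 probes), 6 probes were higher and 3 lower in total ChREBP-KO mice, against 13.6% and 13.7% of all probes. The corticosteroid-binding globulin gene Serpina6 (1.04 ± 0.15 SE), the mineralocorticoid receptor gene Nr3c2 (0.50 ± 0.15) and the steroid reductase gene Akr1d1 (0.50 ± 0.16) were higher. H6pd, which supplies the cofactor of the Hsd11b1 enzyme, was lower (-0.35 ± 0.08). The leading probe of the steroid reductase gene Srd5a1 was also lower (-0.85 ± 0.10), while another of its probes was higher. In ChREBPβ-deficient mice 0 of the 18 passed, and between the WT littermates 2 were higher, of the receptor chaperone genes Ptges3 (0.26 ± 0.06) and Hsp90aa1, and 2, of Srd5a1 (-0.48 ± 0.09), lower.

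Among 7 genes of metal handling other than Mt1 and Mt2 (11 probes), 4 probes were lower and 0 higher in total ChREBP-KO mice, against 13.7% and 13.6% of all probes. These were the metal exporter genes Slc30a10 (-1.83 ± 0.17 SE) and Slc30a1 (-0.29 ± 0.09) and the importer genes Slc39a10 (-0.49 ± 0.12) and Slc39a14 (-0.31 ± 0.11). Slc30a10 ran from 7.77 to 8.32 in total ChREBP-KO mice and from 9.73 to 10.22 in their littermates, without overlap. The metal sensor gene Mtf1 differed by 0.16 ± 0.07 (adjusted p = 0.104), and Mt3 and Mt4 gave no call. In ChREBPβ-deficient mice 0 of the 11 passed, and between the WT littermates Slc30a10 alone was higher in the total line (0.48 ± 0.16).

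Of 13 genes of growth arrest and the p53 response (17 probes), 6 probes were higher and 2 lower in total ChREBP-KO mice, against 13.6% and 13.7% of all probes. Trp53inp1 (1.30 ± 0.23 SE), Btg2 (1.22 ± 0.38), the cell cycle inhibitor gene Cdkn1c (0.86 ± 0.21) and the dimmer probe of its relative Cdkn1b (0.25 ± 0.08) were higher, and Gadd45g, a relative of Gadd45b (-3.05 ± 0.58), and Trp53 (-0.47 ± 0.16) lower. Gadd45g was also higher in the WT mice of the total line than in those of the ChREBPβ line (2.67 ± 0.56), as was Mdm2 (0.41 ± 0.06), while Sesn1 (-0.51 ± 0.09), Bbc3 (-0.65 ± 0.17) and the dimmer probe of Cdkn1b (-0.23 ± 0.07) were lower. In ChREBPβ-deficient mice 0 of the 17 passed.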

How the data were processed

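Liver RNA of 4 groups of mice was read on 31 one-color Agilent arrays. Deposited were the output files of the scanner software (Feature Extraction 10.10.1.1), with spot intensity values as measured on each array, and a matrix in which the authors had quantile normalized the log2 values of spots above a weight limit and kept 1 median for each probe. The log base of this matrix, and that it was not centred, were found by comparison with the scanner output (r = 1.00, column medians 7.50 to 7.51, 50 missing values). It holds a column per array. The array design gave gene names and mm9 positions.

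The median spot intensity was used on the log2 scale with no background subtracted. A spot was kept if it was flagged usable on 26 arrays or more, or on 6 or more within 1 group (34131 to 38612 usable spots per array). After quantile normalization, repeated spots were replaced by their median, which left 36059 probes. Groups and replicate numbers follow the labels. Arrays 7 and 8 of the total-line WT littermates were averaged because they differed by less than repeated spots, although the design foresaw 31 separate arrays. With R 4.3.3, limma 3.58.1 and data.table (version 1.17.8), 1 linear model of the 4 groups was fitted to all probes (lmFit, contrasts.fit, eBayes), with Benjamini-Hochberg adjustment over all probes and a threshold of 0.05. The script was tested on simulated data. Correlations used group-centred values and 1e+05 permutations within groups.

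The 10 genes and all lists were chosen with earlier results of these data known. All 10 genes were named, with most called genes of each list and a few others, and for Fkbp5, Mt1 and Cdkn1a the 3 most similar gene names. Alternatives were signal, background correction, scaling, filter, the deposited table, slide, scan day, the replicate number, separate fits, other tests, a fold of 1.5 and each sample left out. Counting arrays 7 and 8 separately, leaving out samples with pancreatic RNA, each scan day alone and the deficient mice of both lines in place of the WT mice were chosen after seeing the data. The study's adipose tissues were not analysed here.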

Additional observations from a re-analysis of the deposited data

Results flagged for a closer look

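In 64 sets of values, 1 for each of the 16 probes in each group, 5 held a mouse far from the others by Dixon's criterion, which marks about 5% of such sets by chance. ChREBPβ-deficient sample 2 accounted for 4 of them. It read 14.57 at the leading Mt1 probe (log2 signal, next highest mouse 12.65), 6.91 at the upstream Mt1 probe (next 6.18), 14.24 for Mt2 (next 12.07) and 7.85 for Gadd45b (next 7.13). The fifth was WT sample 5 of the ChREBPβ line, at 5.50 for the dimmer Cdkn1a probe (next 4.80). These probes share a mouse and its RNA and are not independent.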

How the results depend on the processing

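For total ChREBP-KO mice the number of calls among the 16 probes, 0 as reported, was 1 with normexp background correction, slide as a random block, a separate fit of each line, array weights, the exact Mann-Whitney test, arrays 7 and 8 counted as 2 samples, the samples with pancreatic RNA left out, or scan day 1 alone, and 2 with slide as a fixed block or the replicate block. Leaving out 1 sample gave 0 to 1. In ChREBPβ-deficient mice it was 0 under every alternative run. For the difference between deficiencies (0) it was 1 without pancreatic RNA, 2 on scan day 1 (both Zbtb16 probes), and 0 to 1 with 1 sample left out. Between WT littermates (6) it was 2 with spots usable on all arrays, where fewer probes were tested, 1 with slide fixed, 2 in the Mann-Whitney test, 1 on scan day 2, and 4 to 9 with 1 sample left out. The target probes called between WT littermates (14) numbered 9 with slide fixed, 9 in the Mann-Whitney test, 7 on day 1 and 3 on day 2, and those of the difference between deficiencies (14) 8 on day 1 and 6 on day 2. With deficient mice in place of WT mice, Hsd11b1 turned from 0.00 to -0.22. Over all probes, the count between WT littermates (5402) was 3540 with spots usable on all arrays, 1759 with slide fixed, 2893 in the Mann-Whitney test, 889 with a fold of 1.5, 2290 on day 1 and 665 on day 2. In total ChREBP-KO mice (9851) it was 2196 with the fold, 5806 on day 1 and 3531 on day 2, for the difference between deficiencies (5200) 1931, 1520 and 1467, and in ChREBPβ-deficient mice (1) between 0 and 2. The causes were not tested. Between WT and deficient mice of the same replicate number, r was -0.16 to 0.53 over 8 pairs of the ChREBPβ line. It was -0.23 to 0.17 over 6 pairs of the total line. The deficient mouse most like a WT mouse carried its number in 3 of the 8 pairs and in 0 of the 6. The replicate block left 0 calls in ChREBPβ-deficient mice and, in total ChREBP-KO mice, added the upstream Mt1 probe (-2.14, adjusted p = 0.00404) and Cdkn1a (adjusted p = 0.0321). It could not be fitted between the lines, and separate fits and the Mann-Whitney test gave no value for the difference between deficiencies. Slide fits used array 7 of the averaged pair. Of the tests of single probes, 2987 kept their side of the threshold, 28 lost and 40 gained a call, and 1 reversed. The 7 of 55 gene pairs called over 30 samples numbered 7 with either other scaling.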

Other observations

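Of 12 acute phase genes (14 probes), 7 probes were lower and 1 higher in total ChREBP-KO mice, against 13.7% and 13.6% of all probes. The serum amyloid genes Saa1 (-2.36 ± 0.65 SE) and Saa2 (-2.42 ± 0.67), the orosomucoid genes Orm1 (-1.08 ± 0.18) and Orm2 (-1.16 ± 0.21) and the fibrinogen genes Fga and Fgg were lower, and Crp (0.51 ± 0.13) was higher. In ChREBPβ-deficient mice 0 of the 14 passed, with Saa1 at -1.59 ± 0.61 (not passed), and between the WT littermates 1, of Crp, was lower in the total line. Of 14 clock genes (32 probes), 10 probes were higher and 5 lower in total ChREBP-KO mice, against 13.6% and 13.7% of all probes. Probes of Dbp, Nr1d1 (1.20 ± 0.26), Per1, Per3, Tef, Ciart and Cry2 were higher, and those of Arntl, Cry1 and Npas2 lower. None of the 32 clock probes passed in ChREBPβ-deficient mice, and between the WT littermates 1 was higher (of Clock) and 2 lower, of Cry2 and of Nr1d1 (-0.77 ± 0.25).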
